A study of Mus musculus with 11 samples.

Results

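The 10 genes described here, Cdkn1a, Ccng1, Zmat3, Mdm2, Bax, Bbc3, Aen, Eda2r, Phlda3 and Trp53inp1, are known targets of the transcription factor p53 and were chosen by name. That choice was made with earlier results of these data known. Each of the 10 genes had 1 locus in the table of the ileum and 1 in that of the colon, so all 10 were found among 12675 named genes in ileum and 12831 in colon. RNA of intestinal epithelial cells (IECs), which EDTA had released from the tissue of male mice aged 10 weeks, was sequenced as 11 libraries. WT mice gave 2 ileal and 3 colonic libraries, and Vil-Ogt KO mice 3 of each, with RNA of the samples pooled in equal amounts for library construction. In Vil-Ogt KO mice, Villin-Cre, which is active in the gut epithelium, deletes floxed Ogt, the gene of O-GlcNAc transferase, which attaches a single sugar to proteins inside the cell. Other cells of the isolate, such as lymphocytes, keep Ogt. Whether WT mice carried floxed alleles or Cre is not given in the sources used here, nor is the number of mice in a library or whether ileum and colon came from the same mice.

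p53 is held at a low level by the ubiquitin ligase Mdm2, which is itself a p53 target, and accumulates after DNA damage, ribosomal stress or oncogene activity. It then turns on genes that halt the cell cycle, genes that lead the cell to apoptosis, and genes that feed back on p53. In the gut, crypt cells are known for a strong p53 response to irradiation, with Bbc3 (Puma) as a mediator of crypt apoptosis and Cdkn1a (p21) of arrest, and Cdkn1a is also found in differentiating cells that have left the cycle.

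The values are log2 FPKM (fragments per unit of transcript length and of sequencing depth), with 1 value that the authors pooled for each genotype and tissue. A difference is the log2 FPKM of Vil-Ogt KO minus that of WT, so 1 stands for a 2-fold higher level, and the tables' 2 decimals leave an uncertainty of 0.01. No value carries an error, and no test of a difference was possible. All differences are therefore descriptions, set beside the share of all named genes that differed by as much. Depth per library is unknown. In this bulk RNA, fewer cells of a type and less RNA per cell cannot be told apart.

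Promoter sequences are shown because p53 acts through a DNA element near or in its targets: a 10-base motif, the p53 decamer, which it binds best as a pair. RefSeq windows of GRCm38.p6 (the mm10 build), from 250 bases before to 50 after an annotated start, were found for 8 of the 10 genes (12 windows). The decamer consensus, which is its own reverse complement and so covers both strands, occurred without mismatch in the windows of 5 of these 8 genes, against 9.55% of 27025 genes with a window. A pair of decamers, 0 to 13 bases apart and with at most 2 mismatches in all and the central C and G of each decamer kept, occurred in 3 of the 8 genes, against 4.71% of all genes. The stretches with a match follow, 5′ to 3′ on the strand of the gene, with 1 match of each gene in capitals. Where a pair was found, the capitals mark the pair with the fewest mismatches (the first of equals), mismatched decamers included. The windows of Cdkn1a, Ccng1 and Bax each held 2 pairs under this rule, and the other pair, which can overlap the marked one, is not in capitals. For Cdkn1a the match lay in 1 of its 2 windows.
Cdkn1a, chr17:29090886-29090957, plus strand, a pair 12 bases apart without mismatch: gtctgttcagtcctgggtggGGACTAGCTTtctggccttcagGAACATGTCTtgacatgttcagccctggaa
Ccng1, chr11:40755442-40755501, minus strand, a pair 0 bases apart with 1 mismatch: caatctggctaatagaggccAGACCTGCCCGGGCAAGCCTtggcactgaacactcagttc
Bax, chr7:45467070-45467134, minus strand, a pair 5 bases apart with 2 mismatches: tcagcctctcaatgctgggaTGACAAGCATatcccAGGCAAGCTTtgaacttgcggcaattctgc
Mdm2, chr10:117710925-117710954, minus strand, a single decamer: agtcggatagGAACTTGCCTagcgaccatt
Aen, chr7:78895927-78895956, plus strand, a single decamer: agccgaagccGGGCTTGTCCgggcaaggag

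Counted from the first transcribed base as 0, the decamers in capitals lay at -195 to -176 in Ccng1, -216 to -192 in Bax and -186 to -177 in Mdm2. In Cdkn1a they lay at -73 to -42 from the upstream of its 2 annotated starts, and the window of the other start held no match. In Aen the decamer lay at 10 to 19 or -121 to -112, depending on which of its 2 annotated starts is used. The windows of Phlda3, Eda2r and Bbc3 held neither a decamer nor a pair. Among 32 other p53 target genes with a window, 9 held a decamer and 6 a pair. These matches describe letters in a short window and say nothing of where p53 was bound.

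Ogt, the targeted gene, had a log2 FPKM of 3.39 in WT and 1.97 in Vil-Ogt KO ileum, and 5.02 and 3.03 in colon, in the direction of the labels. All 9 epithelial markers (Epcam, Vil1, keratins and others) were measured in every group and none was listed at 0, with a summed level between 10151 FPKM in WT colon and 12673 FPKM in Vil-Ogt KO colon. The ileal pools differed widely from each other in cell type markers. Over the 10 enterocyte markers in both tables, the sum was 1772 FPKM in WT ileum and 22375 FPKM in Vil-Ogt KO ileum, against 731 FPKM in WT colon and 1198 FPKM in Vil-Ogt KO colon. The 12 lymphocyte markers summed to 122 FPKM in WT ileum and 611 FPKM in Vil-Ogt KO ileum, against 75.8 and 33.4 FPKM in colon, and 8 stem cell markers to 183 and 74.7 FPKM, against 171 and 131 FPKM. On these 3 lists WT ileum lay nearer to the colon pools than to Vil-Ogt KO ileum, with the limit that the tables were normalized separately. The 7 colonocyte markers in both tables summed to 469 FPKM in WT ileum and 159 FPKM in Vil-Ogt KO ileum, and to 1531 FPKM in WT colon and 531 FPKM in Vil-Ogt KO colon. In the colon 4 of these 7 were more than 2-fold lower, while Cldn4 was higher in both tissues (2.58 and 1.68). Car1, a colonocyte gene listed for the ileum, stood there at a log2 FPKM of 12.53 in WT and 7.41 in the knockout. Of 8 myeloid markers in the ileum, 5 were more than 2-fold higher (S100a8 by 5.95, S100a9 by 5.45 and Tyrobp by 2.64 among them). The other 2 past 2-fold were lower, Itgam at -2.13 and Cd14 at -1.70. These 8 markers summed to 46.8 FPKM in WT ileum and 49.8 FPKM in Vil-Ogt KO ileum. Of 6 stromal markers in the ileum 5 were more than 2-fold lower. In the colon no myeloid marker with a difference passed 2-fold, the value of Cd68 there being that of a locus shared with Eif4a1 and not of Cd68 alone. S100a8 and S100a9, listed at 0 in WT colon, stood at 4.76 and 2.60 FPKM in Vil-Ogt KO colon. Of 3 stromal markers in the colon 1 was higher and 1 lower. For comparison, 15.2% of all genes were more than 2-fold higher and 15.0% lower in ileum, and 7.13% and 8.26% in colon. Cell type markers thus differed between genotypes in both tissues. Their part in the differences of p53 target genes was not tested, and since libraries are pooled, no value can be given without any one of them.

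The 10 genes were mostly higher in Vil-Ogt KO, but unevenly. In each tissue 9 of them lay above WT, the exceptions being Aen in the ileum and Bbc3 in the colon. Phlda3 and Eda2r were more than 7-fold higher in both tissues. Cdkn1a was 4.56-fold higher in the ileum and 1.29-fold higher in the colon. Bax and Bbc3, which act at the mitochondria, differed by less than 2-fold in either tissue. More than 2-fold higher were 5 of the 10 in the ileum (Cdkn1a, Zmat3, Mdm2, Eda2r and Phlda3), where 15.2% of all named genes were, and 3 of the 10 in the colon (Zmat3, Eda2r and Phlda3), where 7.13% were. Past 4-fold were 3 of the 10 in ileum (6.53% of all genes) and 2 in colon (2.53%), and past 1.5-fold 7 in ileum (23.5%) and 5 in colon (14.0%). None of the 10 was more than 2-fold lower in either tissue, nor more than 1.5-fold lower. Of all genes, 15.0% were more than 2-fold lower in ileum, 8.26% in colon and 4.52% in both, 28.0% and 18.2% were more than 1.5-fold lower, and 3.66% and 2.1% more than 4-fold lower. The median difference of the 10 genes was 1.115 in ileum and 0.615 in colon, while over all named genes it was -0.07 and -0.045. Above WT by any amount were 46.6% of all genes in ileum and 46.2% in colon. Because the 10 genes were chosen with earlier results of these data known, these shares are not an unbiased reference for them.

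**Figure D1:**
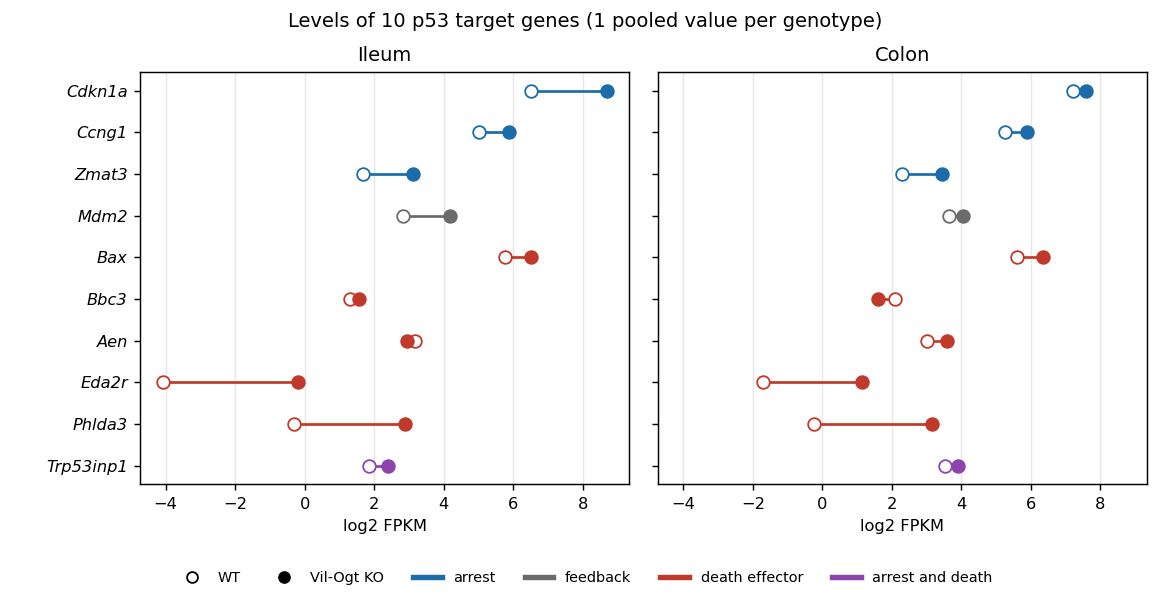
Levels of the 10 p53 target genes as log2 FPKM (x axis) in ileum (left) and colon (right), with 1 pooled value per genotype: open circles are WT, filled circles Vil-Ogt KO, and colours give the role of the gene. The longest lines belong to Eda2r and Phlda3 in both tissues, and the line of Cdkn1a is long in the ileum (6.50 to 8.69) and short in the colon (7.22 to 7.59).

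Among the arrest genes, Cdkn1a encodes p21, the inhibitor of cyclin-dependent kinases (mm10 chr17:29090986-29100722, plus strand). Its log2 FPKM was 6.50 in WT ileum and 8.69 in Vil-Ogt KO ileum, that is 90.5 and 413 FPKM, a difference of 2.19. Larger differences in that tissue were found in 5.53% of named genes. In the colon it stood at 7.22 in WT and 7.59 in Vil-Ogt KO (149 and 193 FPKM), a difference of 0.37 that 21.9% of genes exceeded. Krt20, a keratin of differentiated epithelium, differed by 1.57 in ileum and 0.61 in colon, and its part in the values of Cdkn1a was not tested. Of the 10 members, Cdkn1a had the widest gap between the tissues, its ileal difference being 1.82 above its colonic one on the log2 scale. The 2 tables were normalized separately, and with that limit WT ileum lay 0.72 below WT colon for Cdkn1a while Vil-Ogt KO ileum lay 1.10 above Vil-Ogt KO colon. The annotation (GENCODE vM21) places an antisense gene model within Cdkn1a, and whether the reads were counted by strand is not given in the sources used here.

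Ccng1 encodes cyclin G1, which recruits a phosphatase to Mdm2 (chr11:40748552-40755286, minus strand). Its log2 FPKM went from 5.01 to 5.88 in ileum and from 5.24 to 5.89 in colon, differences of 0.87 and 0.65. The Vil-Ogt KO levels of Ccng1 in the tissues were within 0.01 of each other. Zmat3 encodes a zinc-finger protein that binds RNA and acts on splicing and mRNA stability (chr3:32334794-32367438, minus strand). It went from 1.67 to 3.11 in ileum and from 2.29 to 3.43 in colon. These differences of 1.44 and 1.14 made it the only arrest gene past 2-fold in both tissues, as were 3.81% of the 11839 genes compared in both. On the scale of log2(FPKM + 1) the colonic difference was 1.0, just under 2-fold. The order of the arrest genes by difference was Cdkn1a, Zmat3 and Ccng1 in the ileum and Zmat3, Ccng1 and Cdkn1a in the colon.

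Mdm2, the ligase that marks p53 for degradation (chr10:117688888-117710716 in the ileum table, minus strand), also differed more in ileum than in colon. Its log2 FPKM was 2.82 in WT ileum and 4.18 in Vil-Ogt KO ileum, a difference of 1.36, and 3.64 and 4.05 in the colon, a difference of 0.41. The ratio of Cdkn1a to Mdm2 on the FPKM scale was 12.8 in WT ileum, 22.8 in Vil-Ogt KO ileum, 11.96 in WT colon and 11.6 in Vil-Ogt KO colon. Outside the Vil-Ogt KO ileum the ratio thus lay between 11.6 and 12.8.

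The death effectors fell into genes with large and with small differences. Phlda3 encodes a protein with a pleckstrin homology domain that competes with the survival kinase AKT for membrane lipids (chr1:135766085-135769134, plus strand). Its log2 FPKM went from -0.32 to 2.89 in the ileum, or from 0.801 to 7.41 FPKM, and from -0.25 to 3.14 in the colon, or from 0.841 to 8.82 FPKM. The differences of 3.21 and 3.39 correspond to 9.25-fold and 10.5-fold higher levels. Of the 11839 genes compared in both tissues, 26 (Phlda3 included) were at least as much higher in both. In WT it was below 1 FPKM in either tissue, and in Vil-Ogt KO it stood near the middle of all named genes, above 45.4% of them in ileum and 47.7% in colon.

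Eda2r encodes a receptor of the tumour necrosis factor receptor family that binds the A2 form of ectodysplasin (chrX:97333841-97377209 in the ileum table, minus strand). It had the largest difference of the 10 genes in the ileum, its log2 FPKM going from -4.09 to -0.18 (difference 3.91), and the second largest in the colon, from -1.72 to 1.15 (2.87). At these levels, 0.0587 and 0.883 FPKM in the ileum and 0.304 and 2.22 FPKM in the colon, it remained the lowest of the 10 genes in all 4 groups. On the scale of log2(FPKM + 1), its differences were 0.83 in ileum and 1.30 in colon, so the ileal one no longer passed 2-fold.

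Bax encodes the protein that opens pores in the outer mitochondrial membrane (chr7:45461525-45466898 in the ileum table, minus strand). Its log2 FPKM went from 5.76 to 6.51 in ileum and from 5.61 to 6.36 in colon. The difference was 0.75 in both tissues, the only member with equal values, and larger differences were found in 19.3% of genes in ileum and 10.2% in colon. The locus of Bax overlaps a gene model of the same strand, Gm45808, whose reads cannot be told apart from its own.

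Bbc3 encodes Puma, a BH3-only protein that releases Bax from its inhibitors (chr7:16308458-16318334 in the ileum table, plus strand). It had a log2 FPKM of 1.31 in WT and 1.57 in Vil-Ogt KO ileum, and 2.10 and 1.59 in colon. Its differences of 0.26 and -0.51 placed it close to WT in the ileum and made it the only one below WT in the colon, where 78.8% of all genes had a larger difference. Aen encodes a nuclease that enhances apoptosis (chr7:78895927-78911237 in the ileum table, plus strand). Aen showed the opposite order, with 3.16 in WT and 2.94 in Vil-Ogt KO ileum (difference -0.22) and 3.0 and 3.58 in the colon (difference 0.58). Both genes therefore differed in sign between the tissues, each by less than 2-fold.

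Trp53inp1, a stress protein with roles in arrest, death and autophagy (chr4:11156441-11174671 in the ileum table, plus strand), had differences of 0.54 in the ileum (1.86 to 2.40) and 0.38 in the colon (3.53 to 3.91). Its level differed more between tissues than between genotypes: with the limit of separate normalization, WT ileum lay 1.67 below WT colon, and Vil-Ogt KO ileum 1.51 below Vil-Ogt KO colon.

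**Figure D2:**
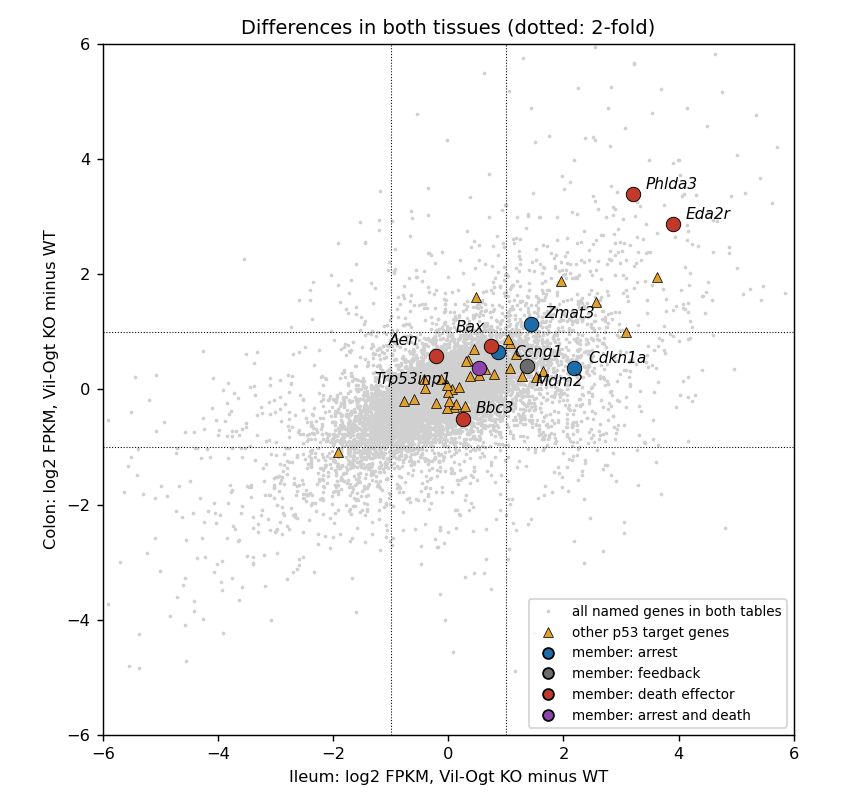
Difference in log2 FPKM (Vil-Ogt KO minus WT) in the ileum (x axis) against that in the colon (y axis) for 11839 genes compared in both tables (grey; 25 genes beyond 6 on an axis are not drawn), the 10 members (circles, coloured by role) and other p53 target genes (triangles); dotted lines mark 2-fold. Phlda3 and Eda2r lie at the upper right, Zmat3 just inside the quadrant past 2-fold in both tissues, and Cdkn1a and Mdm2 past 2-fold in the ileum only.

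Arrest genes had a higher median difference than death effectors in ileum, while in colon the medians nearly coincided. In the ileum the median difference was 1.44 for the 3 arrest genes (range 0.87 to 2.19) and 0.75 for the 5 death effectors (range -0.22 to 3.91). In the colon the medians were 0.65 (0.37 to 1.14) and 0.75 (-0.51 to 3.39). The ranges of the classes overlapped in both tissues, and the colonic medians were 0.10 apart. Arrest minus death in colon, -0.10, became -0.015 with Trp53inp1 counted as a death effector or with Phlda3 left out. Ccng1 and Zmat3, described above by their actions on Mdm2 and on RNA, were kept as arrest genes throughout. Other classes for them were not tried, so the medians of the arrest genes rest on that choice. When levels were added up, arrest genes made 126 FPKM in WT ileum and 481 FPKM in Vil-Ogt KO ileum, and death effectors 66.5 and 110 FPKM. The ratio of arrest to death mRNA was 1.89 in WT ileum and 4.37 in Vil-Ogt KO ileum. In the colon arrest genes made 192 and 263 FPKM and death effectors 62.3 and 108 FPKM, a ratio of 3.08 in WT and 2.43 in Vil-Ogt KO. These sums follow the most abundant gene of each class: Cdkn1a alone made 67.3% of the summed FPKM of the 10 genes in Vil-Ogt KO ileum, against 44.6% in WT ileum, 53.6% in WT colon and 47.9% in Vil-Ogt KO colon.

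The ratio of Cdkn1a to single death effectors, on the FPKM scale, depended on the effector. Against Bax it was 1.67 in WT ileum and 4.53 in Vil-Ogt KO ileum, but 3.05 and 2.35 in the colon. Against Bbc3 it was higher in Vil-Ogt KO in both tissues, at 36.5 and 139 in the ileum and 34.8 and 64.0 in the colon. Against Phlda3 it was lower in Vil-Ogt KO in both, at 113 and 55.7 in the ileum and 177 and 21.9 in the colon. The ratio of Bax to Bbc3, the pore former to its activator, was 21.9 and 30.7 in the ileum and 11.4 and 27.3 in the colon.

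**Figure D3:**
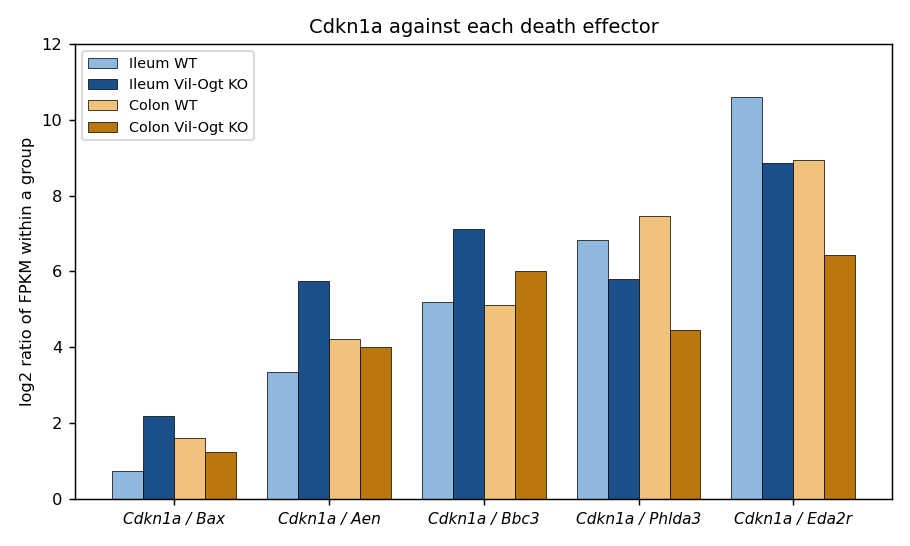
log2 ratio of the FPKM of Cdkn1a to that of each of 5 death effectors (y axis, from 0) in the 4 groups, 1 pooled value per bar. In Vil-Ogt KO the ratio to Bbc3 was higher than in WT in both tissues, those to Phlda3 and Eda2r were lower in both, and those to Bax and Aen were higher in ileum but lower in colon.

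The ends of the order by level were the same in all groups. Cdkn1a, Bax and Ccng1 were the 3 most abundant in each of the 4 groups, and Eda2r the least. WT levels spanned 10.59 on the log2 scale in ileum and 8.94 in colon, and Vil-Ogt KO levels 8.87 and 6.44, the lowest genes having the largest differences. The exchange of places was clearest for Phlda3, which was ninth in WT ileum and WT colon and came seventh in Vil-Ogt KO ileum, above Bbc3 and Trp53inp1, and eighth in Vil-Ogt KO colon, above Bbc3.

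Of 38 other p53 target genes, a list also chosen with earlier results of these data known, 35 were measured in ileum and 36 in colon. In the ileum 11 were more than 2-fold higher (31.4%, against 15.2% of all genes) and 1 was more than 2-fold lower, with a median of 0.34. In the colon 5 were more than 2-fold higher (13.9%, against 7.13%) and 1 was lower, with a median of 0.235. Of 35 measured in both tissues, 3 were higher past 2-fold in both, where 3.81% of all genes were. They were Plk2 and Gdf15, a stress-induced polo-like kinase and a secreted stress cytokine, and the ephrin receptor gene Epha2. Plk2 had differences of 3.63 in ileum and 1.96 in colon, Gdf15 of 2.57 and 1.52, and Epha2 of 1.96 and 1.89. The receptor gene Notch1 was lower in both, with differences of -1.92 and -1.09. It was the only 1 of the 35 lower past 2-fold in both, where 4.52% of all genes were.

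Others passed 2-fold in 1 tissue. In the ileum these were the kinase gene Plk3 (3.09, and 1.0 in the colon), Pmaip1, which encodes the BH3-only protein Noxa (1.65 and 0.32), the death receptor genes Fas (1.52 and 0.22) and Tnfrsf10b (1.07 and 0.38), Apaf1 of the apoptosome (1.07 and 0.81), the DNA polymerase gene Polk (1.17 and 0.62), the mTOR inhibitor gene Ddit4 (1.03 and 0.88) and Abhd4 (1.28 and 0.23). In the colon Psrc1 passed (1.61, and 0.48 in the ileum), as did the adenylate kinase gene Ak1 (1.09, without a value in the ileum). Ak1 was low, at 0.316 FPKM in WT and 0.674 FPKM in Vil-Ogt KO, and without it, as with a minimum of 1 FPKM or on the scales of log2(FPKM + 1) and log2(FPKM + 0.1), 4 genes were higher in colon. With differences centred on the median of all named genes, 6 were higher in colon. In the ileum 8 were higher on the scale of log2(FPKM + 1). Ppm1d, the phosphatase that opposes p53, stood at 0.00 in ileum and -0.04 in colon. Fas, Tnfrsf10b, Abhd4, Ak1 and Ppm1d were chosen after their values were seen, as were Trp53, Mdm4, Bak1, Mcl1, Bcl2, Bcl2l2, Plk1, Rrm2, Ascl2, Axin2, Cdkn1b, Cdkn1c, Cdkn2b and Cdkn2d in what follows.

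Trp53, which encodes p53 itself, was lower in Vil-Ogt KO. Its log2 FPKM went from 5.70 to 4.71 in ileum and from 5.05 to 4.54 in colon, differences of -0.99 and -0.51. Of 21 measured genes for p53 and its regulators, 15 lay below WT in the ileum (median -0.52) and 19 of 20 with a difference lay below WT in the colon (median -0.225). Of all genes, 46.6% and 46.2% lay above WT. More than 2-fold lower was Trim28, a corepressor that works with Mdm2, in the ileum (-1.06, and -0.47 in the colon). More than 2-fold higher in the ileum was Cdkn2a, whose product Arf binds Mdm2 (difference 2.65, log2 FPKM -1.10 and 1.55). In colon it was listed at 0 FPKM in WT, against a log2 FPKM of -1.11 in Vil-Ogt KO. Mdm4, the sister of Mdm2, stood at 0.31 in ileum and -0.60 in colon, in the latter opposite in sign to Mdm2.

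Relatives of Bax and Bbc3 lay mostly within 2-fold. Of 7 other BCL2 family effectors and BH3-only genes measured, none passed 2-fold in the ileum (median -0.03) and 1 did in the colon (median -0.16), namely Bik, which was lower (-1.52, and -0.83 in the ileum). That is 14.3% of the list, against 8.26% of all genes lower and 7.13% higher in colon, and 15.0% and 15.2% in ileum. Bak1, the sister of Bax, stood at -0.03 and -0.20. The genes of the proteins that hold Bax in check all lay above WT in the ileum (5 of 5, median 0.88, where 46.6% of all genes did), with Bcl2l1 at 1.04 and Mcl1 at 0.88. In colon 2 of 4 did (median 0.125), Bcl2l1 at 0.41 and Mcl1 at 0.25, while Bcl2 stood at -0.11 and the locus that Bcl2l2 shares with Pabpn1 in that table at 0.0, which is not a value of Bcl2l2 alone. Bcl2a1b, a member found in blood cells, was 1.64 higher in the ileum, where lymphocyte markers were higher too, and its part in the list was not tested. Of 14 measured family relatives of the members, 2 were more than 2-fold higher in each tissue (14.3%, against 15.2% of all genes in ileum and 7.13% in colon), with medians of -0.005 and 0.24. Phlda1 was 1.38 and 1.36 higher in ileum and colon, Phlda2 stood at -0.40 and 1.48, and Ccng2, the sister of Ccng1, at 1.94 and 0.24.

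Genes that p21 represses through the DREAM complex, such as those for mitosis and DNA replication, were mostly more than 2-fold lower in ileum and within 2-fold in colon. In the ileum 24 of 29 were more than 2-fold lower (82.8%, against 15.0% of all genes) with a median of -1.24, and all 29 lay below WT. In the colon 1 of 30, Cenpf, passed 2-fold (3.33%, against 8.26%), with a median of -0.535 and 28 of 30 below WT, the exceptions being Plk1 (0.69) and Rrm2 (0.37). Among all genes, 46.6% lay above WT in ileum and 46.2% in colon. The centromere genes Cenpf (-1.73 in the ileum, -1.08 in the colon) and Cenpe (-1.64, -0.87), the anaphase activator gene Cdc20 (-1.46, -0.67) and the replication helicase gene Mcm6 (-1.51, -0.58) are examples. Stem cell markers, which mark the dividing crypt, were lower in the same ileal comparison, with a median of -1.44. There 6 of 10 were more than 2-fold lower (60.0%, against 15.0% of all genes). In colon 1 of 8 stem cell markers, Lgr5, was more than 2-fold lower (12.5%, against 8.26% of all genes), a share near that of all genes. The colonic median was -0.425, while Ascl2 (0.21) and Axin2 (0.06) lay above WT. The part of stem cells in the values of the DREAM genes was not tested.

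Cyclins and their kinases are the partners of p21. A list of 22 genes held cyclins, CDKs and CDK inhibitors, and also Rb1, Rbl1, Rbl2, E2f1 and Pcna. Of these 22, 5 were more than 2-fold lower in the ileum (22.7%, against 15.0% of all genes), with a median of -0.695. In the colon 1 was (4.55%, against 8.26%), with a median of -0.275. These shares lay near or below those of all genes. None of the 22 was more than 2-fold higher in either tissue. Cyclin E1 (Ccne1) stood at -1.88 and -0.29, E2f1 at -1.31 and -0.68, and cyclin B1 (Ccnb1) at -1.12 and -0.31. Among CDK inhibitor genes, Cdkn2a, which also encodes p16 and was counted above with the p53 regulators, exceeded the ileal difference of Cdkn1a (2.65 against 2.19), and Cdkn1c its colonic one. Cdkn1b stood at -0.65 in ileum and -0.94 in colon, Cdkn2c at -1.87 and -1.01, Cdkn2d at -0.76 and -0.82, Cdkn2b at 0.12 and -0.23 and Cdkn1c at 0.39 and 0.69.

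**Figure D4:**
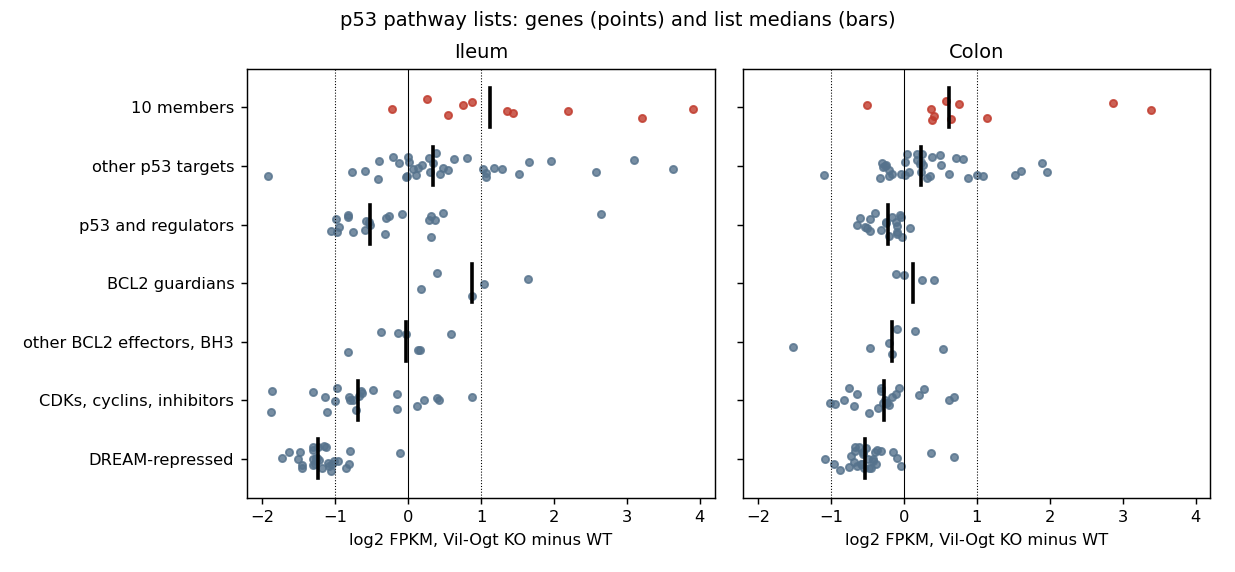
Difference in log2 FPKM (Vil-Ogt KO minus WT, x axis) in ileum and colon for the 10 members (red) and 6 lists of p53 pathway genes (blue), 1 point a gene with vertical jitter only to separate points, and black bars for list medians; dotted lines mark 2-fold. The members have the highest median in both tissues (1.115 and 0.615) and the DREAM-repressed genes the lowest (-1.24 and -0.535).

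The genes outside all lists whose pair of differences lay nearest to that of Phlda3 (Euclidean distance over 2 tissues, among 10405 genes whose mean reached 1 FPKM in both) were Cubn, Ak4, the locus of Gspt1 and Mir1945, Dyrk3, Mttp, Mt1, Mt2 and Depdc7. Cubn, an endocytic receptor gene, stood nearest with 3.27 in ileum and 3.25 in colon (distance 0.152), and the metallothionein genes Mt1 (3.74 and 3.20) and Mt2 (2.60 and 3.14) were farther off. Mttp, needed for lipoprotein assembly in enterocytes, had 3.04 and 2.96. Likeness over 2 differences is a description only.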

How the data were processed

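RNA of IECs from 11 libraries had been sequenced by the authors. Per the paper's methods, reads were trimmed with Trimmomatic and mapped with TopHat to mm10. The submitters' processing notes name TopHat (version 1.0.0), Bowtie and Cufflinks. The deposited tables hold log2 FPKM values, 1 per locus and genotype, which the authors pooled over libraries, with -10 listed for no expression. They also hold the authors' own log2 ratios, q-values and significance marks, which were not used. Unnamed loci (3505 of 16521 for ileum, 4815 of 18122 for colon) were set aside, and a gene with several loci was represented by its most abundant one (mean FPKM of both genotypes). Genes listed at 0 in a genotype (46 and 17) got no difference. Gene entries were split at commas to find list members. Locus starts in the tables count from 0 and are given here from 1.

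Members and lists were chosen with earlier results of these data known. Named genes are all members, per list the 8 (10 for other p53 targets) with the largest absolute mean difference among those past 2-fold in a tissue at a mean of at least 1 FPKM, and the 8 nearest to Phlda3, except where stated. Steps were tested on simulated data. Alternatives were pseudocounts of 1 and 0.1, a minimum of 1 FPKM, centring, summed loci, other folds and other classes. Software was Python 3.11.15, NumPy 2.4.6, pandas 2.3.3 and matplotlib 3.10.9.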

Additional observations from a re-analysis of the deposited data

How the results depend on the processing

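With 1 pooled value per genotype, no spread between libraries is known and no library could be left out. No paired analysis was possible because the tables carry no values of single libraries. The sign of every member's difference was kept under the pseudocounts, the minimum of 1 FPKM, centring and summed loci wherever a value was given (Eda2r in the ileum fell below the minimum and got none). Of 99 such values of single members, 97 stayed within 1.5 times of the value given. The exceptions were Eda2r on the scale of log2(FPKM + 1), at 0.83 in the ileum and 1.30 in the colon.

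With a 4-fold threshold 3 of the 10 members were higher in the ileum, against 6.53% of all genes. Of the other p53 targets, 3 of 35 were in the ileum and 0 of 36 in the colon, against 6.53% and 2.53% of all genes. With a 1.5-fold threshold 5 of the 10 members and 10 of 36 other p53 targets were higher in the colon, against 14.0% of all genes. The median of arrest genes minus that of death effectors in the colon, -0.10, was -0.015 with Trp53inp1 counted among the death effectors and also -0.015 with Phlda3 left out. The median over members of the ileal minus the colonic difference, 0.26, was 0.145 on the scale of log2(FPKM + 1). Low levels such as those of Eda2r limit what a fold can show.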
